A study of Mus musculus with 2 samples.

Results

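A set of 10 genes that encode the contractile filaments of smooth muscle was followed through the cells of the normal mouse thoracic aorta. The genes were found in the matrices by symbol, with no threshold on their values: *Acta2*, *Actg2*, *Tpm1*, *Tpm2*, *Tagln*, *Cnn1*, *Cald1*, *Smtn*, *Lmod1* and *Myh11*, which are 10 of the 32287 features in the count matrices. The data were single-cell RNA sequencing of thoracic aortas from 2 wild-type GFPiSMC mice on the C57BL/6J strain, and these 2 aortas form the only group. All comparisons are therefore between cells of the same aortas (n = 2), and no treatment was compared.

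GFPiSMC mice carry Myh11-CreERT2, a tamoxifen-dependent Cre recombinase driven by the *Myh11* promoter, and the mT/mG reporter, which changes from tdTomato to eGFP in cells where Cre has acted. Both animals received tamoxifen i.p. at 1 mg/d for 5 days, starting at 3 weeks of age, and the aortas were collected at 12 weeks. Male mice were used according to the study's methods. Viable single cells were sorted after a cold digestion and were not selected for GFP. Each aorta gave 1 library of a 3′ chemistry with unique molecular identifiers (UMIs), in which a captured RNA molecule is counted once and levels need no division by gene length.

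Smooth muscle cells (SMCs) contract when myosin thick filaments pull on actin thin filaments. The thin filament is an actin polymer lined by tropomyosin, with calponin, caldesmon and transgelin bound along it, and the motor of the thick filament is the smooth muscle myosin heavy chain. Many of these genes are controlled by serum response factor and its coactivator myocardin through a short DNA element, the CArG box, and they are the usual markers of differentiated SMCs.

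The deposited matrices held 8947 cells with 47009780 UMIs for aorta 1 and 6263 cells with 30919996 UMIs for aorta 2. After filters and removal of called doublets, 6539 and 4614 cells were analysed, and the libraries shared 18 barcodes. Cells were clustered without the 10 genes, their close relatives and the reporters, and clusters were named from other markers, so the filament genes did not define the classes. The SMC class held 2263 cells in aorta 1 and 1658 in aorta 2, with a median of 7711 and 7465 UMIs per cell. Its 8 markers (*Itga8*, *Kcnmb1*, *Npnt*, *Mylk*, *Synpo2*, *Myocd*, *Pln* and *Des*) summed to 4411 and 4318 UMIs per 1000000 UMIs (CPM) in SMCs, against 90.9 to 276 CPM in fibroblasts, endothelial, mesothelial, myeloid cells and lymphocytes. The class names are marker-based and may differ from the study's own.

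The promoter of *Acta2* is shown because this gene is both the most abundant of the list and the one that varied most between SMC subsets, and the promoters of *Cald1* because this gene was the least restricted to SMCs. RefSeq promoters (assembly GRCm38.p6, 250 bases before to 50 after the start) were available for 7 of the 10 genes: *Acta2*, *Tpm1*, *Tpm2*, *Cnn1*, *Cald1* (2 promoters), *Smtn* and *Lmod1*. They were searched on both strands for the CArG box (CC, 6 bases, GG) with at most 1 G or C among the 6 bases of its core. Capitals mark the matches, which are a property of the letters only.
Acta2, chr19:34255324-34255623, minus strand: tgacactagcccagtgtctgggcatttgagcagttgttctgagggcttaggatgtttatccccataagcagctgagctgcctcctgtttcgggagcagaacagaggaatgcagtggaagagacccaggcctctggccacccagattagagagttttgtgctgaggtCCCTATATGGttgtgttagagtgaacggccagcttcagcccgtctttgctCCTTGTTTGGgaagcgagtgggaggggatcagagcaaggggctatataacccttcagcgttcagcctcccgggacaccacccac
Cald1, first promoter, chr6:34598254-34598553, plus strand: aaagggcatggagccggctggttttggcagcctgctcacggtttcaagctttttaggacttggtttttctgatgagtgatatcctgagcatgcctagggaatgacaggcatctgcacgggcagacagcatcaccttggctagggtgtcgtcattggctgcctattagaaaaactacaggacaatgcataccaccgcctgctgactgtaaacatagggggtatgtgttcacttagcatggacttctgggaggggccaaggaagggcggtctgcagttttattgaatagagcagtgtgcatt
Cald1, second promoter, chr6:34709194-34709493, plus strand: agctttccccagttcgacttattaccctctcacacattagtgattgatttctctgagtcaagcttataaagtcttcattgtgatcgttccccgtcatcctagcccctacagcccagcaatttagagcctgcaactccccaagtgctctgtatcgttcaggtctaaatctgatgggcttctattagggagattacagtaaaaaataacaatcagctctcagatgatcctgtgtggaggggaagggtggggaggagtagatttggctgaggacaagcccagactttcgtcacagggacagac

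The *Acta2* promoter held 2 such matches, which began 84 and 34 bases upstream of the start. Of the 8 promoters, the *Acta2* promoter was the only one with a match, and none had a core of A and T alone. Of all 32851 promoters of this length, 9.98% held at least 1 match and 1.63% a match with a core of A and T alone.

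In SMCs the 10 genes gave 5.52% of all UMIs in aorta 1 and 5.28% in aorta 2, 5.40% ± 0.171 (SD, n = 2). The median cell had 5.62% and 5.29%, and cells at the 10th and 90th percentiles had 2.45% and 8.37% in aorta 1 and 2.32% and 7.93% in aorta 2. *Acta2* gave 38.7% and 39.1% of the UMIs of the 10 genes together and *Tagln* 21.4% and 21.0%. Both aortas gave the same order of genes.

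Of the actins, *Acta2* encodes vascular smooth muscle α-actin and lies on chromosome 19 at 34241090 to 34255590, minus strand (ENSMUSG00000035783). Its level in SMCs was 21367 CPM in aorta 1 and 20667 CPM in aorta 2. *Actg2* encodes the γ-actin of enteric smooth muscle and lies on chromosome 6 at 83512905 to 83536265, minus strand (ENSMUSG00000059430). Its SMC level was 512 and 540 CPM, which made it 2.34% and 2.55% of the UMIs of both smooth muscle actins together. It was the lowest of the 10 genes.

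The tropomyosins *Tpm1* (chromosome 9, 67022590 to 67049406, minus strand, ENSMUSG00000032366) and *Tpm2* (chromosome 4, 43514711 to 43523765, minus strand, ENSMUSG00000028464) encode the coiled coils that run along the actin filament. Levels in SMCs were 4228 and 3842 CPM for *Tpm1* and 5568 and 5721 CPM for *Tpm2*. *Tpm1* thus gave 43.2% and 40.2% of the tropomyosin UMIs of this pair, and *Tpm2* was the higher gene in both aortas.

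Among the genes of actin-binding proteins, *Tagln* (transgelin, SM22α; chromosome 9, 45929619 to 45936058, minus strand, ENSMUSG00000032085) reached 11836 and 11090 CPM and was second to *Acta2*. There were 55.4 and 53.7 *Tagln* UMIs for every 100 of *Acta2*. *Cnn1*, which encodes calponin, an inhibitor of the actomyosin ATPase (chromosome 9, 22099216 to 22109630, plus strand, ENSMUSG00000001349), was at 1820 and 1647 CPM. *Cald1*, which encodes caldesmon (chromosome 6, 34598500 to 34775473, plus strand, ENSMUSG00000029761), was at 3194 and 3091 CPM. The gene also has a form made outside muscle, and the counts do not separate the forms.

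*Smtn* (chromosome 11, 3517523 to 3540612, minus strand, ENSMUSG00000020439) encodes smoothelin, an actin-binding protein of contractile SMCs, and its level was 616 and 610 CPM. *Lmod1* (chromosome 1, 135324807 to 135368065, plus strand, ENSMUSG00000048096) encodes leiomodin, which starts new actin filaments, and its level was 1309 and 1237 CPM. The thick filament gene *Myh11* (chromosome 16, 14194535 to 14291372, minus strand, ENSMUSG00000018830) was at 4768 and 4352 CPM. Its promoter also drives the Cre of these mice. *Tagln*, *Cald1* and *Smtn* overlap genes on the opposite strand, and whether the counting used strand is not given in the sources used here. The difference between the aortas was small beside that between genes: the SD of the 2 levels ranged from 3.83 CPM for *Smtn*, with a mean of 613 CPM, to 527 CPM for *Tagln*, with a mean of 11463 CPM.

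**Figure D1:**
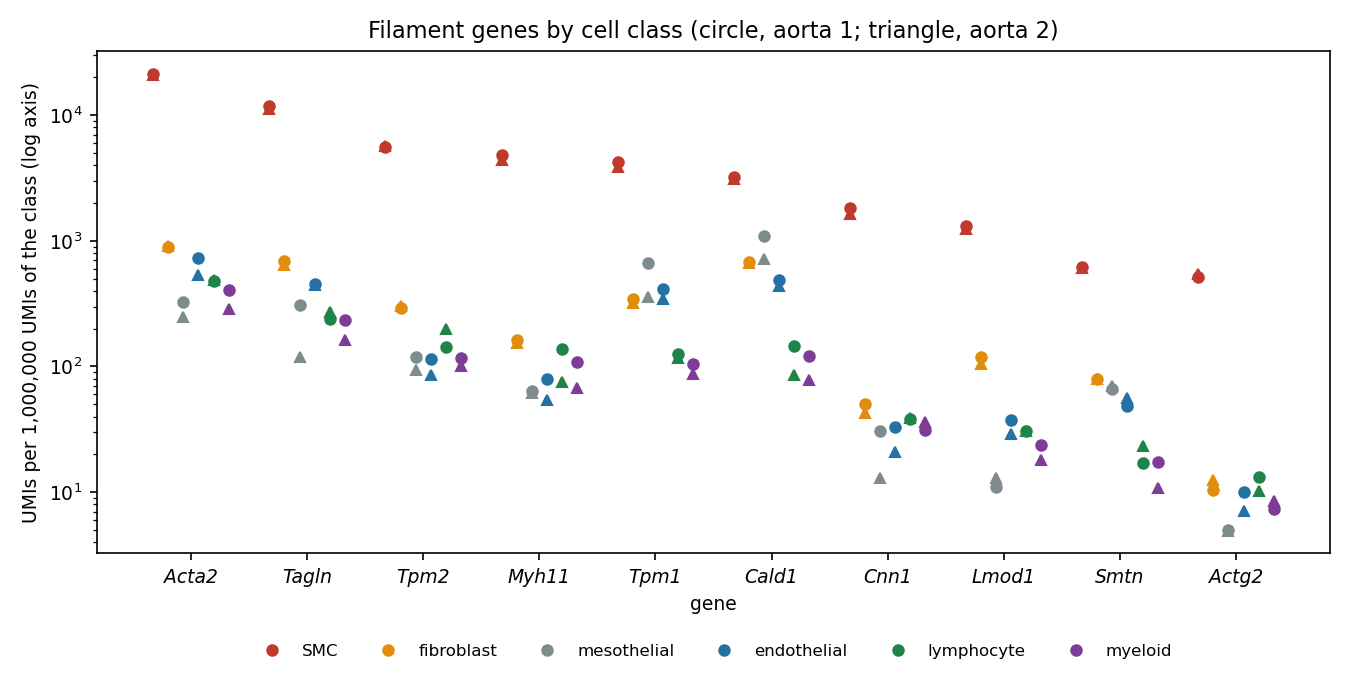
Level of each of the 10 filament genes (x axis) in CPM on a log axis (y axis) in 6 cell classes (colours), with a circle for aorta 1 and a triangle for aorta 2. The SMC points lie above those of the 5 other classes drawn for all 10 genes, from 512 CPM for *Actg2* to 21367 CPM for *Acta2* in aorta 1.

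The first comparison asked how far each gene was restricted to SMCs. All 10 genes were higher in SMCs than in each of the 5 classes compared, and no level in SMCs overlapped one in those classes. An erythroid class (23 and 13 cells) was in the fit but was not compared, since the design named no such contrast, and its levels differed between the aortas (*Myh11* at 302 and 95.9 CPM). Only *Cald1*, *Tpm1* and *Smtn* were above their lymphocyte level, as a percent of SMCs, in fibroblasts, endothelial and mesothelial cells alike in both aortas. *Acta2*, *Actg2*, *Tpm2*, *Tagln*, *Cnn1*, *Lmod1* and *Myh11* were under 10% of their SMC level in those 5 classes. Of these, all but *Actg2* were still above their lymphocyte level in fibroblasts in both aortas. Of each gene's UMIs over all cells, SMCs held from 82.6% (*Cald1*, aorta 1) to 97.7% (*Actg2*, aorta 2).

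*Myh11* had 4768 and 4352 CPM in SMCs but 164 and 155 in fibroblasts, 79.4 and 54.2 in endothelial cells, 137 and 74.7 in lymphocytes, 109 and 67.7 in myeloid cells and 63.9 and 61.4 in mesothelial cells. Its order outside SMCs was not resolved, since lymphocytes and myeloid cells, myeloid and endothelial cells, and endothelial and mesothelial cells overlapped. *Acta2* was at 890 and 903 CPM in fibroblasts, 732 and 533 in endothelial cells, 483 and 487 in lymphocytes, 406 and 289 in myeloid cells and 323 and 250 in mesothelial cells. For *Acta2* only the lowest pair, myeloid and mesothelial cells, overlapped. *Cald1* kept a graded order, with 1090 and 718 CPM in mesothelial cells, 674 and 664 in fibroblasts, 484 and 438 in endothelial cells, 145 and 84.9 in lymphocytes and 121 and 77.9 in myeloid cells. Here only lymphocytes and myeloid cells overlapped.

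In edgeR's quasi-likelihood test on UMIs summed per aorta and class, with Benjamini-Hochberg adjustment over 13965 genes, all 10 genes were called higher in SMCs than in fibroblasts, where 24.6% of all genes tested were called higher. The log2 fold change ranged from 2.31 ± 0.21 (SE) for *Cald1* to 5.60 ± 0.13 for *Actg2*, with a median of 4.25 against -0.07 over all genes tested. Against endothelial cells all 10 were higher as well (27.2% of all genes were), from 2.98 for *Cald1* to 6.29 for *Myh11*, with a median of 5.36. Against myeloid cells (34.4% of genes higher) the range was 4.90 to 6.01, and against lymphocytes (36.1% higher) it was 4.75 to 5.51, so the 10 genes lay close together in both immune comparisons. Against mesothelial cells (25.6% higher) they spread most widely, from 2.07 for *Cald1* to 7.04 for *Lmod1*. The largest adjusted p of the 50 tests was 3.83e-08.

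DESeq2 with its own size factors also called all 10 genes higher in each comparison, with a lowest log2 fold change of 1.77 (*Cald1*, against mesothelial cells). Over all genes it shifted the balance of calls: 28.2% of called genes were higher in SMCs than in fibroblasts against 45.2% in edgeR, 36.6% against 50.7% for endothelial cells and 32.4% against 54.1% for mesothelial cells. The median of all genes moved from -0.07 to -0.21 in the fibroblast comparison and from 0.08 to -0.21 in the mesothelial one, and was -0.11 and -0.20 in DESeq2's endothelial and lymphocyte comparisons. With only 2 aortas, and with classes cut from the same libraries, these p-values measure how alike the 2 aortas were and not the spread of a population of mice. The values in mesothelial cells depended most on 1 library: with aorta 1 left out, the log2 fold change of *Tagln* was 6.88 in place of 5.98 and that of *Cnn1* was 7.32 in place of 6.45.

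The level of the filament genes in cells that should lack them was read from lymphocytes. In lymphocytes the 10 genes were at 2.01% to 4.53% of their SMC levels in aorta 1, with a median of 2.57%, and at 1.72% to 3.80% in aorta 2, with a median of 2.45%. Ratios between genes were close to those in SMCs for some pairs and not for others. *Actg2* was 2.65% and 2.05% of both actins in lymphocytes (2.34% and 2.55% in SMCs), *Tpm1* was 46.8% and 37.2% of both tropomyosins (43.2% and 40.2%), and there were 49.2 and 55.3 *Tagln* UMIs per 100 *Acta2* UMIs (55.4 and 53.7). *Myh11* UMIs per 100 *Acta2* UMIs were 28.3 and 15.3 in lymphocytes, above the SMC ratio in aorta 1 and below it in aorta 2 (22.3 and 21.1). The source of these UMIs, free RNA included, was not tested. Myeloid cells had slightly lower levels, with medians of 2.03% and 1.67% of SMCs.

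The lymphocyte UMIs were not spread evenly over cells. The 5% of lymphocytes with the highest filament share of their own UMIs held 66.2% of the filament UMIs in aorta 1 and 76.3% in aorta 2. The 5% of SMCs with the highest share held 4.92% and 5.24%. Without those cells the 10 genes fell from 0.137% to 0.0492% of lymphocyte UMIs in aorta 1 and from 0.134% to 0.0338% in aorta 2. In 98 of 619 and 92 of 360 lymphocytes no filament UMI was found at all. The highest share among lymphocyte clusters, 0.338% and 0.321%, was in the cluster led by *Hist1h1b* and *Top2a*, genes of dividing cells. Called doublets had been removed from these cells.

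**Figure D2:**
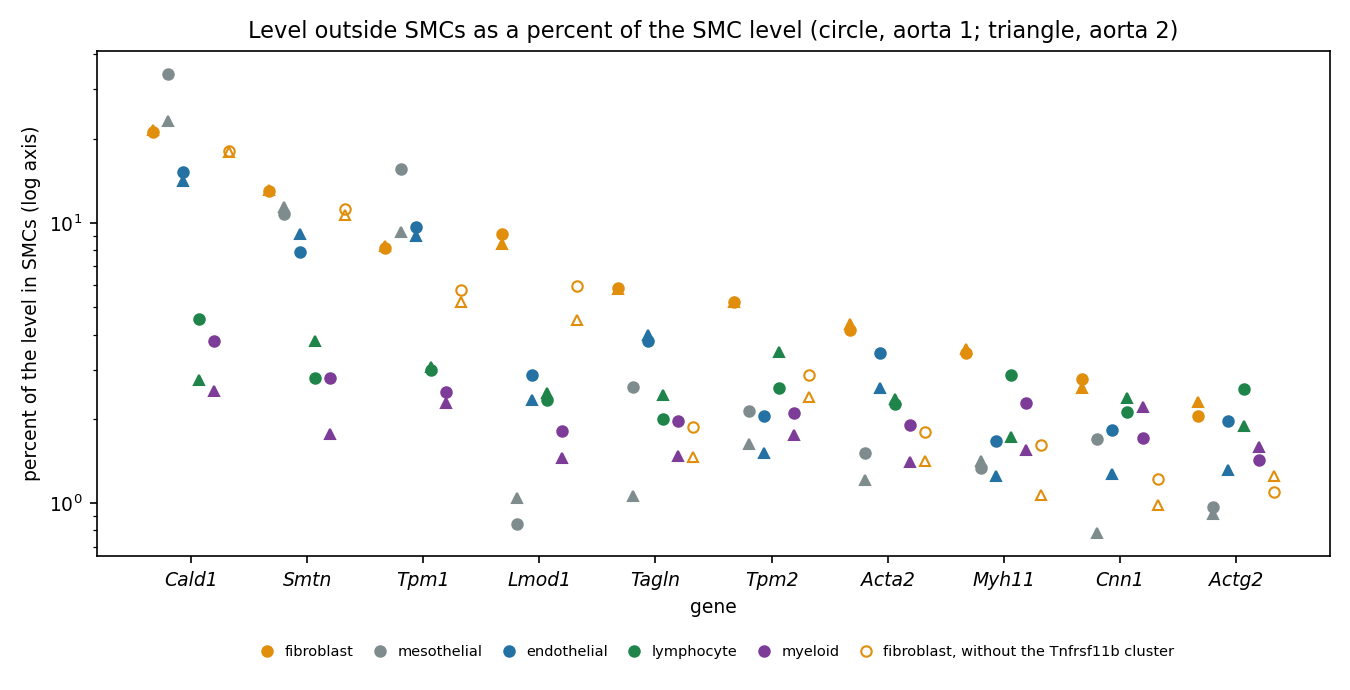
Level of each gene outside SMCs as a percent of its level in SMCs of the same aorta (y axis, log scale), by gene (x axis) and cell class (colours), with open symbols for fibroblasts without the *Tnfrsf11b* cluster. *Cald1*, *Smtn* and *Tpm1* in fibroblasts, endothelial and mesothelial cells lie above the lymphocyte points, for example *Cald1* in endothelial cells at 15.2% and 14.2% against 4.53% and 2.75%.

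In endothelial cells *Cald1*, *Tpm1* and *Smtn* lay furthest above that level. *Cald1* was at 15.2% and 14.2% of its SMC level, *Tpm1* at 9.71% and 8.99% and *Smtn* at 7.91% and 9.14%. *Tagln* was also above its lymphocyte level in both aortas, at 450 and 443 CPM against 237 and 269 CPM, or 3.80% and 3.996% of its SMC level against 2.01% and 2.43%. *Acta2* was above it as well, at 3.42% and 2.58% against 2.26% and 2.36%, and the other 5 genes were between 1.25% and 2.88%. *Tpm1* made up 78.3% and 80.0% of the endothelial UMIs of both tropomyosins, against 43.2% and 40.2% in SMCs, so endothelial tropomyosin UMIs did not have the SMC ratio. *Myh11*, in contrast, was at 1.67% and 1.25% of its SMC level, below its lymphocyte value in both aortas (2.87% and 1.72%).

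The share of cells with a UMI was compared after each cell had been thinned to 1000 UMIs, because endothelial cells (median 3678 and 3027 UMIs) and lymphocytes (4081 and 3876.5) were shallower than SMCs. *Cald1* was found in 34.9% of endothelial cells in aorta 1 (exact binomial 95% interval 31.6 to 38.4) and in 32.1% in aorta 2 (28.7 to 35.6), but in 7.43% (5.49 to 9.79) and 4.72% (2.77 to 7.45) of lymphocytes. *Myh11* was found in 7.91% (6.12 to 10.02) and 3.98% (2.68 to 5.66) of endothelial cells and in 7.75% (5.77 to 10.2) and 4.72% (2.77 to 7.45) of lymphocytes, where the intervals overlap. The endothelial *Cald1* share was thus above the lymphocyte share in both aortas, and the *Myh11* share was not set apart from it.

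*Tpm1* was found in 31.5% and 24.97% of endothelial cells against 9.21% and 10.3% of lymphocytes, and *Tagln* in 24.7% and 24.0% against 13.2% and 8.33%, with intervals apart in both aortas. *Smtn* was found in 4.46% (3.13 to 6.15) and 6.58% (4.89 to 8.64) of endothelial cells against 2.10% (1.12 to 3.56) and 1.11% (0.304 to 2.82) of lymphocytes, so that its intervals overlapped in aorta 1 and not in aorta 2. *Acta2*, the most abundant gene, was found in 99.3% and 99.0% of SMCs, 35.1% and 25.4% of endothelial cells, and 20.2% and 13.3% of lymphocytes, where the endothelial and lymphocyte intervals were apart too. A single UMI of *Acta2* therefore did not mark a cell as an SMC. Without thinning, *Acta2* was found in 51.4% and 38.1% of lymphocytes and *Cald1* in 68.9% and 61.7% of endothelial cells. These intervals cover counting error only.

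Mesothelial cells, the lining of the outer surface, also had *Cald1*, *Tpm1* and *Smtn* above the rest. *Cald1* was at 34.1% and 23.2% of its SMC level, *Tpm1* at 15.6% and 9.29%, and *Smtn* at 10.7% and 11.4%, while the other 7 were between 0.782% and 2.60%. *Tpm1* again dominated its pair, with 84.8% and 79.3% of the tropomyosin UMIs. The spread between the 2 aortas was wide for *Cald1* and *Tpm1* here, and only 275 and 158 cells were in the class.

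Among the 5 classes compared, fibroblasts had the highest mean level for 7 of the 10 genes, and 1 cluster held a share of it that differed between genes. That cluster, singled out after its values had been seen because its *Acta2* level was the highest among fibroblasts, was led by *Tnfrsf11b*, *Fhl2*, *Fst* and *Vwc2* and had 122 and 81 cells. *Acta2* was at 8036 and 9881 CPM in it, or 37.6% and 47.8% of the SMC level, and at 382 and 292 CPM in all other fibroblasts. The cluster was 7.63% and 7.37% of fibroblasts but held 48.3% and 55.4% of their UMIs of the 10 genes together. By gene this share ran from 18.9% and 24.2% for *Smtn* and 20.3% and 22.1% for *Cald1* to 59.9% and 69.7% for *Acta2*, by which the cluster was picked, and 69.97% and 76.4% for *Tagln*.

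The cluster's profile of filament genes was not that of SMCs scaled down evenly. *Cald1* was at 64.6% and 74.5% of its SMC level, *Tagln* at 61.6% and 69.6%, and *Actg2* only at 15.5% and 17.9%. Its cells were uneven: the 10 genes gave 0.0897%, 1.16% and 4.40% of UMIs at the 10th, 50th and 90th percentile of cells in aorta 1 and 0.0693%, 0.592% and 5.32% in aorta 2. An eGFP UMI was found in 53.3% and 49.4% of its cells, against 97.8% and 96.6% of SMCs and 21.3% and 16.1% of lymphocytes. SMC markers summed to 1609 and 1951 CPM in the cluster (181 and 148 in other fibroblasts), fibroblast markers to 6060 and 7518 CPM (25407 and 25365). Their part in the filament levels was not tested.

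Without this cluster *Cald1* was at 18.0% and 17.9%, *Smtn* at 11.3% and 10.6%, *Tpm1* at 5.77% and 5.25% and *Lmod1* at 5.94% and 4.52% of the SMC level in fibroblasts. These 4 were above their lymphocyte levels in both aortas. *Acta2* at 1.79% and 1.41%, *Tagln* at 1.88% and 1.46%, *Myh11*, *Cnn1* and *Actg2* were below them, and *Tpm2* was above in aorta 1 and below in aorta 2. Together the 10 genes gave 0.184% and 0.154% of UMIs in these fibroblasts, against 0.137% and 0.134% in all lymphocytes. The lymphocyte levels were carried by few cells, with 0.0492% and 0.0338% left without the top 5% of them. That fall followed from removing cells by their filament share, and these fibroblasts were not cut in the same way. All 10 genes remained called higher in SMCs than in fibroblasts. The log2 fold change rose from 4.62 to 6.02 for *Acta2*, from 4.18 to 5.96 for *Tagln* and from 4.91 to 6.25 for *Myh11*. It rose from 5.29 to 6.54 for *Cnn1*, from 4.33 to 5.31 for *Tpm2* and from 5.60 to 6.49 for *Actg2*. Smaller rises were those of *Lmod1* (3.58 to 4.30), *Tpm1* (3.68 to 4.24), *Smtn* (3.01 to 3.25) and *Cald1* (2.31 to 2.54). Since the cluster was picked by its high *Acta2* level, the *Acta2* rise followed from that choice.

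The second comparison was among SMCs. Clustering the SMCs again, without the filament genes and their relatives, gave 14 subsets, of which 10 entered the test. Of the rest, 3 were left out because their leading genes included markers of fibroblasts, T cells or endothelial cells, and 1 because it had under 10 cells in aorta 2. Each subset is named here by its first leading gene. All 10 filament genes differed among subsets in edgeR's quasi-likelihood F test (51.4% of 9923 genes did), with adjusted p from 3.91e-20 to 6.04e-11. Because the subsets were cut from other genes of the same cells, these tests describe how alike the subset differences were in the 2 aortas.

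**Figure D3:**
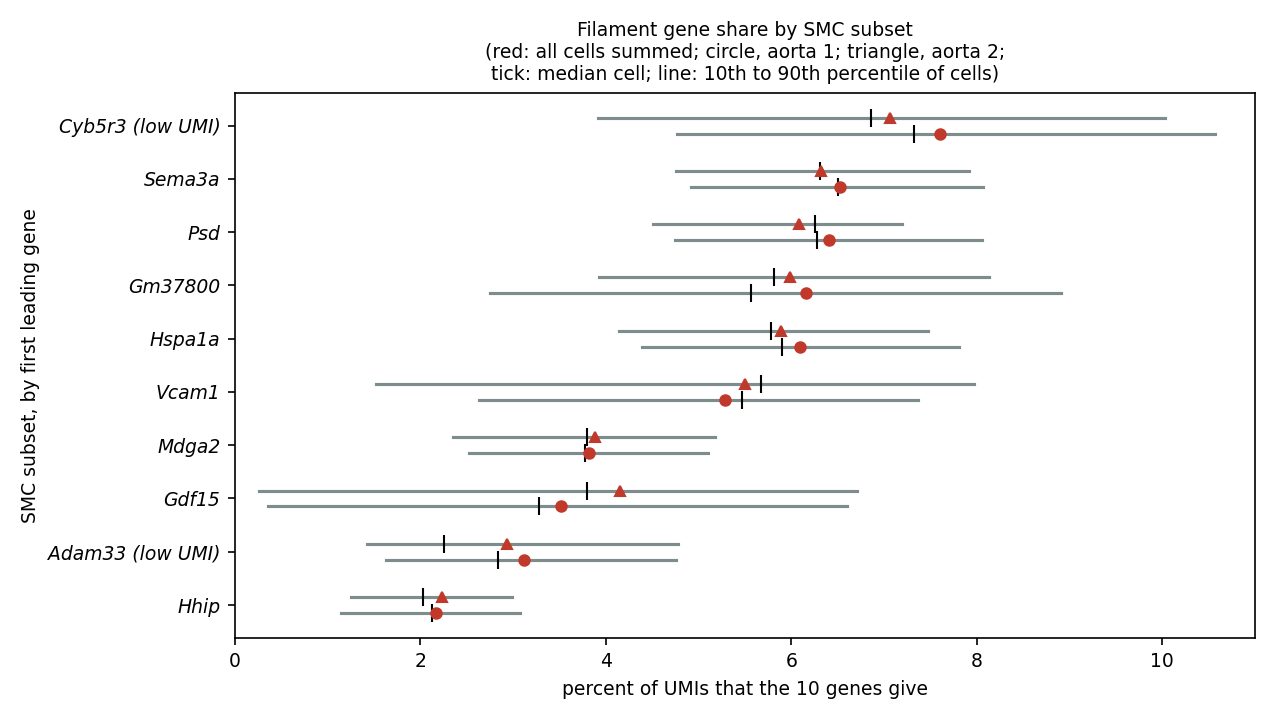
Share of UMIs given by the 10 filament genes (x axis, percent) in each tested SMC subset (y axis, named by first leading gene). Red symbols are all cells of a subset summed in aorta 1 (circle) and aorta 2 (triangle), ticks are median cells and lines run from the 10th to the 90th percentile of cells. The *Hhip* subset lies lowest at 2.16% and 2.23%.

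The *Hhip* subset (also led by *Chrdl2*, *Foxd2os*, *Pde10a* and *Spock2*; 118 and 82 cells) had the lowest filament share, 2.16% and 2.23% of UMIs. *Acta2* was at 5960 and 6199 CPM in it, against 12935 to 26138 CPM over both aortas in the other subsets of ordinary depth. *Tagln* was at 4026 and 4453 CPM, *Tpm2* at 2495 and 2515 CPM and *Myh11* at 2270 and 2173 CPM. For *Acta2*, *Tagln* and *Myh11* both values lay below those of every other tested subset, and for *Tpm2* they overlapped only those of the low-UMI *Adam33* subset (2610 and 2410 CPM).

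All 10 genes were called lower in the *Hhip* subset than in the mean of the other subsets, where 10.7% of all genes were called lower. The fall was uneven. *Acta2* fell by 1.93 ± 0.09 (SE) on the log2 scale (adjusted p = 1.14e-18) and *Tagln* by 1.62 ± 0.09, whereas *Lmod1* fell by 0.63 ± 0.09, *Cnn1* by 0.74 ± 0.12 and *Cald1* by 0.76 ± 0.08. The composition of the filament set differed accordingly, with 18.3 *Cnn1* UMIs per 100 *Acta2* UMIs in both aortas against 8.52 and 7.97 in all SMCs, and 38.1 and 35.1 of *Myh11* against 22.3 and 21.1. The 10 calls stayed when the subsets of low UMI count were left out and when only cells with 5000 to 10000 UMIs were used.

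The 8 SMC markers summed to 2828 and 2831 CPM in the *Hhip* subset, against 2540 to 5174 CPM in the other tested subsets. Its 5 pericyte markers summed to 927 and 870 CPM, the highest of the tested subsets (82.9 to 393 CPM in the others), with 2 of the 5 at 0 in each aorta. The part of pericyte RNA in the filament levels was not tested.

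The *Mdga2* subset (*Mdga2*, *Fbln1*, *Dlx6*, *Msx2*, *Dlx6os1*; 265 and 287 cells) was the next lowest of the larger subsets, with a filament share of 3.82% and 3.88%. *Acta2* was at 12935 and 13885 CPM and *Tagln* at 7181 and 6853 CPM, while *Actg2* reached 692 and 580 CPM, above the 512 and 540 CPM of all SMCs. *Actg2* was accordingly 5.08% and 4.01% of the smooth muscle actin UMIs in this subset.

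In all, 8 of the 10 genes were called in the *Mdga2* subset, where 7.50% of all genes were called lower and 12.5% higher: *Tagln* fell by 0.75 ± 0.09 on the log2 scale, *Acta2* by 0.60 ± 0.08, and *Tpm1*, *Tpm2*, *Cald1*, *Smtn* and *Myh11* by 0.23 to 0.40, and *Actg2* rose by 0.45 ± 0.11 (adjusted p = 0.00339). *Cnn1* (0.04 ± 0.11) and *Lmod1* (-0.09 ± 0.08) did not pass. DESeq2 did not call the rise of *Actg2* (adjusted p = 0.1). Without the low-UMI subsets, and also with mixed subsets kept, *Tpm1* and *Myh11* no longer passed, and in cells with 5000 to 10000 UMIs *Cald1* did not pass either.

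The *Gdf15* subset was led by *Gdf15*, *Cdkn1a*, *Dnm3*, *Phlda3* and *Cox6b2*, with *Cdkn1a* and *Phlda3* being known targets of p53, and had 43 and 44 cells. The filament share was 3.52% and 4.15%, and the 10th percentile of its cells, 0.355% and 0.261%, was the lowest of the tested subsets. *Acta2* was at 13171 and 16307 CPM and *Smtn* at 361 and 345 CPM, the lowest *Smtn* level of the tested subsets. A total of 9 genes were called lower (3.06% of all genes were), from *Smtn*, which fell by 0.96 ± 0.10, to *Tagln*, which fell by 0.40 ± 0.08. *Cnn1*, at -0.32 ± 0.12, passed with the aorta as a block (adjusted p = 0.0247) and when genes with few UMIs were kept (0.0156), and *Actg2* was lost in cells with 5000 to 10000 UMIs (0.118).

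**Figure D4:**
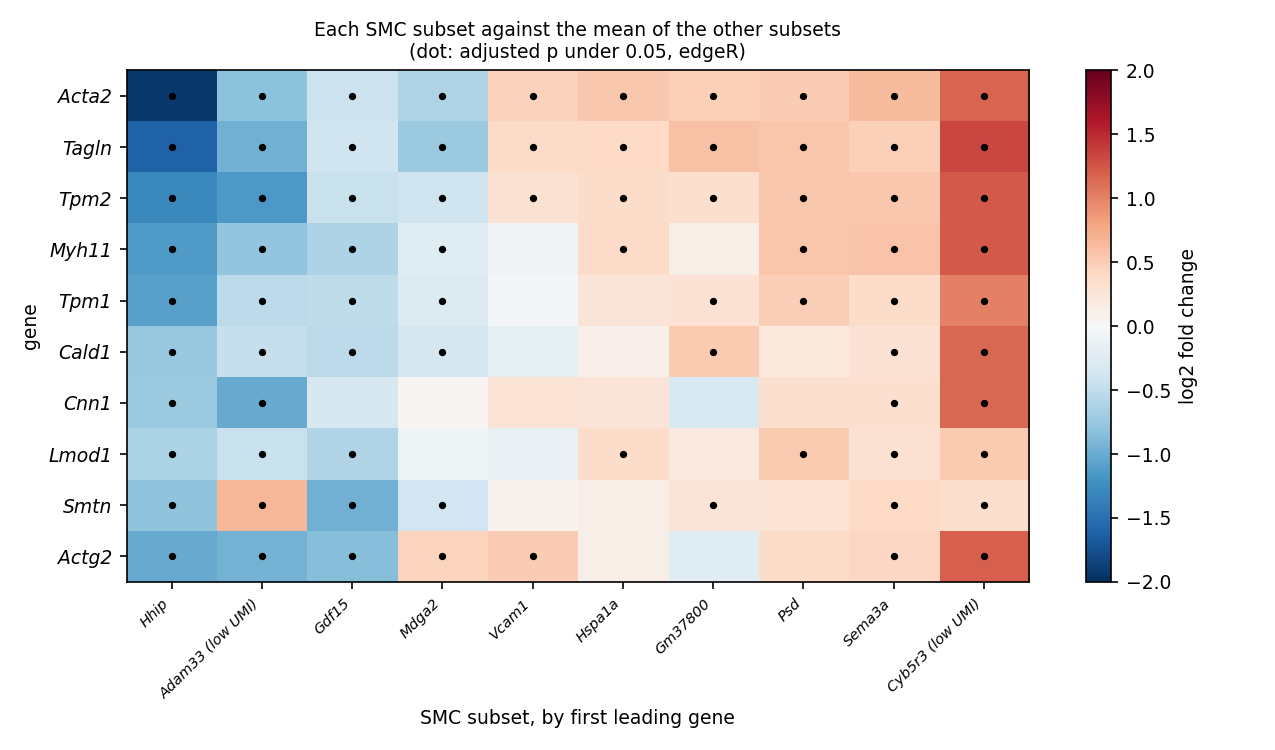
Log2 fold change (colour) of each filament gene (rows) in each SMC subset (columns, ordered by filament share) against the mean of the other subsets, with a dot where edgeR's adjusted p was under 0.05. The *Hhip* column is lower for all 10 genes, down to -1.93 for *Acta2*, and in the *Adam33* column *Smtn* alone is higher.

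At the other end lay 4 subsets of ordinary depth. The *Sema3a* subset (*Sema3a*, *Hoxa7*, *Hoxb7*, *Tnc*, *Tafa1*; 286 and 257 cells) had a filament share of 6.52% and 6.33%, with *Acta2* at 26138 and 25536 CPM and *Myh11* at 5711 and 5315 CPM. All 10 genes were called higher in it (4.95% of all genes were), with small log2 fold changes of 0.28 (*Cald1*) to 0.63 (*Acta2*). DESeq2 did not call *Actg2* (adjusted p = 0.327) and *Cnn1* (adjusted p = 0.262) there, *Actg2* was lost with mixed subsets kept (adjusted p = 0.123 in edgeR), and *Lmod1* was lost in cells with 5000 to 10000 UMIs.

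The *Psd* subset (*Psd*, *Tnnt2*, *Hand2os1*, *Des*, *Hand2*) had 209 cells in aorta 1 and only 28 in aorta 2, with a share of 6.41% and 6.08%. *Lmod1* had its highest level of the tested subsets there, 1541 and 1536 CPM. *Acta2*, *Tpm1*, *Tpm2*, *Tagln*, *Lmod1* and *Myh11* were called higher (4.32% of all genes were), by 0.49 to 0.56 on the log2 scale. With the aorta as a block *Cnn1* (adjusted p = 0.00734), *Cald1* (0.0228) and *Smtn* (0.0148) passed too.

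In the *Hspa1a* subset, the largest (*Hspa1a*, *Hspa1b*, *Atf3*, *Hand2*, *Cdh6*; 472 and 367 cells), led by heat shock and immediate early genes, the share was 6.10% and 5.89%. *Acta2*, *Tpm2*, *Tagln*, *Lmod1* and *Myh11* were called higher (4.36% of all genes were), by 0.36 to 0.55 on the log2 scale. The block added *Tpm1* (adjusted p = 0.00453) and *Cnn1* (0.0189).

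The *Gm37800* subset (*Gm37800*, *Gprc5c*, *Pln*, *Pgf*, *Gja4*; 67 and 56 cells) had a share of 6.16% and 5.99% but a different mix. *Tagln* was at 15079 and 14104 CPM and *Cald1* at 4234 and 3976 CPM, each the highest level among subsets of ordinary depth, while *Cnn1* was at 1362 and 1166 CPM. *Acta2*, *Tpm1*, *Tpm2*, *Tagln*, *Cald1* and *Smtn* were called higher (7.12% of all genes were). *Cnn1*, at -0.31 ± 0.12, passed as lower with the aorta as a block (adjusted p = 0.0116). When only cells with 5000 to 10000 UMIs were used, *Actg2* and *Cnn1* passed as lower, and *Tpm2* was lost. DESeq2 did not call *Tpm1* (adjusted p = 0.0633), and *Smtn* no longer passed when genes with few UMIs were kept (adjusted p = 0.133 in edgeR).

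The *Vcam1* subset (*Vcam1*, *Timp1*, *Fbln2*, *Lgals3*; 96 and 85 cells), led by an adhesion molecule and genes of the extracellular matrix, was close to the middle at 5.29% and 5.51%. *Acta2* was at 21996 and 22986 CPM, whereas *Cald1* was at 2553 and 2513 CPM and *Myh11* at 3498 and 3739 CPM. *Acta2*, *Actg2*, *Tpm2* and *Tagln* were called higher (7.76% of all genes were), by 0.30 to 0.51 on the log2 scale. The block added *Cnn1* as higher (adjusted p = 0.0151) and *Cald1* as lower (0.0464), and in cells with 5000 to 10000 UMIs *Actg2* and *Tpm2* were lost. DESeq2 called *Cald1* lower (adjusted p = 0.0109) and did not call *Actg2* (adjusted p = 0.0709).

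Both remaining tested subsets were of low UMI count and differed in filament share. The *Cyb5r3* subset (*Cyb5r3*, *Atf5*, *Uchl1*, *Rassf3*, *Map4*; 459 and 277 cells) had a median of 1741.5 UMIs per cell and the highest filament share, 7.60% and 7.07%. *Acta2* was at 27988 and 26426 CPM and *Tagln* at 17907 and 17138 CPM. All 10 genes were called higher, where 17.9% of all genes were, by 0.35 (*Smtn*) to 1.34 (*Tagln*) on the log2 scale. *Malat1*, a nuclear RNA, was 0.160% and 0.114% of its UMIs, against 2.74% to 4.63% in the subsets of ordinary depth. The median mitochondrial share was 7.01% and the median cell had 807.5 genes, against 4.18% to 5.57% and 2676 to 3196 genes in those subsets. The part of depth and RNA quality in its levels was not tested. Of all genes called in it, 56.9% were higher in edgeR and 67.8% in DESeq2.

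In the *Adam33* subset (*Adam33*, *Gm26917*, *Malat1*, *Malt1*; 71 and 70 cells) the median was 1871 UMIs and *Malat1* was 22.3% and 21.4% of UMIs. The filament share was 3.12% and 2.93%, and 4.02% and 3.72% of the UMIs that were not *Malat1*. A total of 9 genes were called lower (12.6% of all genes were), with *Tpm2* falling by 1.15 ± 0.10 on the log2 scale. *Smtn* was called higher, as 12.2% of all genes were, by 0.67 ± 0.10 (adjusted p = 3.01e-06), at 914 and 977 CPM, the highest *Smtn* level of any tested subset. Of all genes called there, 49.2% were higher in edgeR and 63.6% in DESeq2. The median mitochondrial share was 3.26%, and the median cell had 986 genes. The part of cell depth, RNA quality and *Malat1* in these values was not tested. Both low-UMI subsets together were 23.4% and 20.9% of SMCs.

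Over the 8 subsets of ordinary depth, the mean *Acta2* level varied 4.25-fold, *Tagln* 3.44-fold, *Tpm2* 2.69-fold, *Myh11* 2.48-fold, *Actg2* 2.43-fold, *Tpm1* 2.27-fold, *Smtn* 2.12-fold, *Cald1* 1.93-fold, *Lmod1* 1.81-fold and *Cnn1* 1.69-fold. Many neighbours in these orders were not separated: for *Actg2*, 7 of 9 neighbouring pairs among the 10 tested subsets overlapped between the aortas, against 3 of 9 for *Acta2* and 1 of 9 each for *Cald1* and *Smtn*. With subsets pooled, the filament share also rose with the depth of a cell. Outside the low-UMI and mixed subsets it was 4.64%, 5.49% and 5.98% for the cells of lowest, middle and highest UMI count, in equal groups, in aorta 1 and 4.49%, 5.24% and 5.69% in aorta 2. The subsets pooled here differed in depth, with a median of 6916 UMIs in the *Hhip* subset, 8113 in the *Mdga2* subset and 10321 in the *Sema3a* subset. The part of this mix in the rise was not tested. Within cells of 5000 to 10000 UMIs the share was 2.19% and 2.24% in the *Hhip* subset, 3.70% and 3.87% in the *Mdga2* subset and 6.40% and 6.54% in the *Sema3a* subset. In the *Gm37800* subset it was 5.46% and 5.80%.

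As a description over the 20 sums of subset and aorta, each gene was set against the mean of the other 9. The Pearson r was 0.974 for *Tpm1*, 0.970 for *Myh11*, 0.941 for *Tpm2*, 0.921 for *Acta2*, 0.918 for *Tagln* and between 0.735 and 0.843 for *Actg2*, *Cnn1*, *Cald1* and *Lmod1*, but 0.291 for *Smtn*. Of 11129 genes, those outside the list most like the mean of all 10 were *Actn1* (r = 0.945), which encodes an actin crosslinker, *Tmsb4x* (0.911), which encodes an actin-monomer-binding thymosin, *Vim* (0.906), the intermediate filament vimentin, *Rras* (0.901), a small GTPase, and *Pkp4* (0.885). The sums share 2 libraries and differ in depth, and both low-UMI subsets are among them.

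Close relatives of the 10 genes and the myosin light chains did not share the pattern as a group. Of 26 such genes, 17 had enough UMIs to be tested between classes, and against fibroblasts 10 were called higher and 7 lower in SMCs (24.6% and 29.8% of all genes were), with a median log2 fold change of 0.51. The light chain genes *Myl9* (4746 and 5005 CPM in SMCs; log2 fold change 4.01 ± 0.17) and *Myl6* (9151 and 9531 CPM; 2.52 ± 0.18) rose with the filament genes. *Tmod1*, which encodes a cap of the slow-growing filament end (2.16 ± 0.21), and *Tagln2* (719 and 768 CPM; 1.99 ± 0.15) were higher as well. The cytoplasmic actins *Actb* (5888 and 5215 CPM) and *Actg1* (1703 and 1689 CPM) differed less, at 1.27 ± 0.23 and 0.51 ± 0.17.

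Lower in SMCs than in fibroblasts were *Smtnl2* (-2.66 ± 0.37), *Tmod2* (-2.12 ± 0.15), *Tmod3* (-1.21 ± 0.10) and the light chain gene *Myl12b* (-1.18 ± 0.11). Against endothelial cells 9 relatives were called higher and 7 lower, where 27.2% of all genes were higher and 26.5% lower. The counts were 7 and 6 against myeloid cells (34.4% and 34.0% of all genes), 10 and 4 against lymphocytes (36.1% and 33.9%), and 10 and 6 against mesothelial cells (25.6% and 21.7%). In the *Hhip* subset, 3 of 16 tested relatives were called higher and 6 lower, where 13.8% of all genes were called higher and 10.7% lower. Reads shared between near-identical actin, tropomyosin and light chain genes could have been split or dropped in the counting.

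The last comparison used the reporter, which records past activity of the Cre driven by the *Myh11* promoter. With mixed subsets left out, 1962 and 1415 SMCs had eGFP UMIs and no tdTomato UMI, and 34 and 40 had tdTomato UMIs and no eGFP UMI. Of the tdTomato-only cells 26.5% and 37.5% lay in the *Hspa1a* subset, against 21.9% and 23.6% of the eGFP-only cells, while 2 of 34 and 1 of 40 lay in the *Sema3a* subset, against 13.9% and 17.0%. The *Hhip* subset held 11.8% and 7.50% of them, against 5.61% and 4.73%, and the *Mdga2* subset 5 and 10 of them, against 249 and 251 eGFP-only cells. These are few cells, from 1 to 15 tdTomato-only cells in each of these subsets and aortas. The part of these shares in the levels was not tested. *Acta2* was at 20518 and 15441 CPM in the tdTomato-only cells and at 21932 and 21494 CPM in the eGFP-only cells. *Myh11* was at 5012 and 3622 CPM against 4855 and 4425 CPM, so that it was higher in the tdTomato-only cells of aorta 1 and lower in those of aorta 2. *Actg2* behaved likewise, with 729 and 317 CPM against 497 and 531 CPM. So did *Tpm1* (4559 and 3154 against 4311 and 3921 CPM) and *Cnn1* (1903 and 1426 against 1851 and 1679 CPM). *Smtn* did so with almost no difference in aorta 1 (618.6 and 435.7 against 617.9 and 620.6 CPM).

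None of the 10 genes was called between these groups (0.0259% of 11599 genes, or 3, were), with edgeR log2 fold changes of -0.37 ± 0.16 (*Acta2*) to -0.09 ± 0.23 (*Actg2*) and adjusted p of 0.776 to 0.972. The unadjusted p was under 0.05 for 4 of them, and DESeq2 called none and had none at an unadjusted p under 0.05. When genes with few UMIs were kept in the test, *Acta2* and *Tagln* passed. In simulated sums of this size the test recovered 38% of 2-fold and 75% of 4-fold changes. The genes changed there were drawn only from genes above a floor of UMIs. The *Myh11* level of the tdTomato-only SMCs was above the 54.2 to 164 CPM of the 5 classes compared with SMCs.

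**Figure D5:**
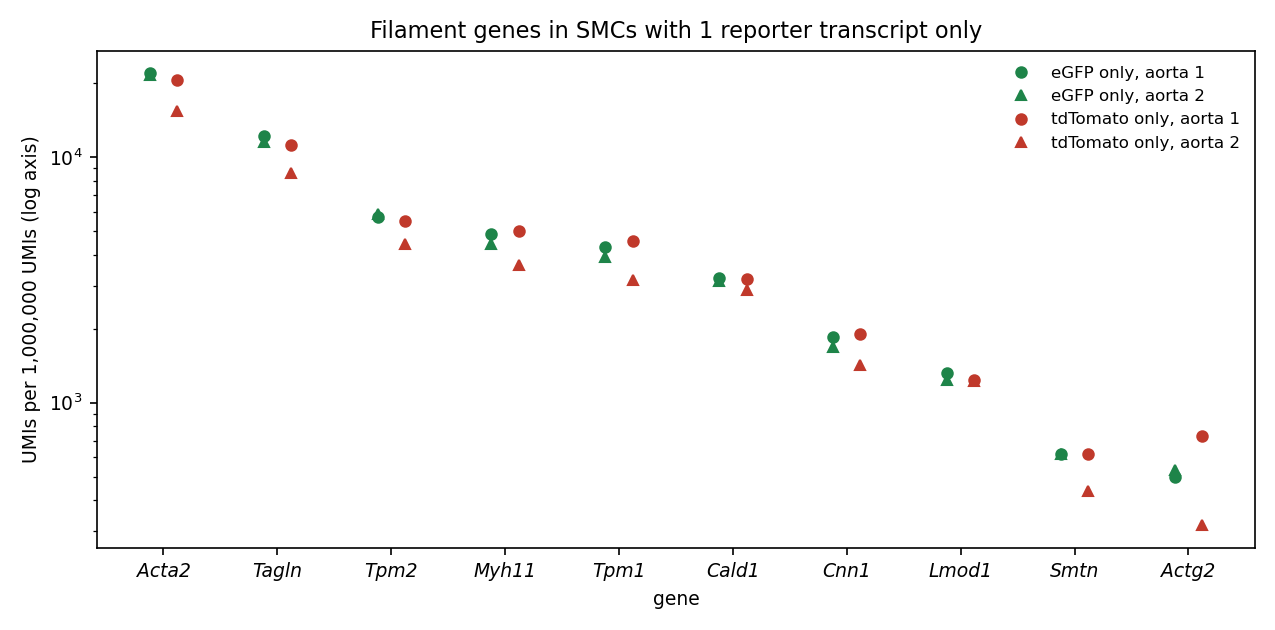
Level of the 10 filament genes (x axis) in CPM on a log axis (y axis) in SMCs with eGFP UMIs only (green) and tdTomato UMIs only (red), with a circle for aorta 1 and a triangle for aorta 2. The groups lie close together, and the tdTomato-only cells of aorta 2 lie lowest for all 10 genes, for *Acta2* at 15441 CPM.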

How the data were processed

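Single-cell RNA sequencing of 2 wild-type thoracic aortas was analysed from the deposited matrices, whose values are raw UMI counts per gene and cell made by the authors with Cell Ranger 4.0.0 from mm10 with eGFP and tdTomato added (Seurat 4.0 is also named in the submitters' processing notes). The 10 genes, their relatives, the marker lists and the named genes were chosen with earlier results of these data known. Every member was to be named, and of the 26 relatives the 5 with the highest mean level in SMCs and up to 4 with the largest change against fibroblasts in each direction.

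Cells with more than 200 genes, 1000 to 25000 UMIs and under 10% mitochondrial UMIs were kept (6744 and 4698), and 205 and 84 doublets called by Scrublet in scanpy 1.11.5 (Python 3.11.15) were removed. The median was 5671 and 5396.5 UMIs per cell. Clustering used 2000 variable genes, 30 components, 15 neighbours and Leiden resolution 1, without the 10 genes, their relatives, the reporters and mitochondrial genes. Of 31 clusters, 29 were named from 16 marker lists, 5 of them SMCs. UMIs were summed per aorta and class or subset with at least 10 cells in each aorta and tested in edgeR 4.0.16 (R 4.3.3) by the quasi-likelihood test, with TMM scaling and filterByExpr. P-values were adjusted over every tested gene by the Benjamini-Hochberg method, and a gene was called at an adjusted p under 0.05. The erythroid class shared the fit and was not compared. The SE was taken as the size of the log2 fold change over the root of its F statistic. CPM are UMIs per 1000000. Sums with the same number come from the same animal and are paired by design. The correlation of their deviations was 0.0152 to 0.226 over 15 pairs of classes (median 0.101) and 0.0275 to 0.561 over 45 pairs of subsets (median 0.146). The main fits did not use this pairing, and the aorta block was run as an alternative. On simulated sums the fit recovered 87% of 2-fold and 99% of 4-fold changes between SMCs and fibroblasts. Between the *Mdga2* and *Hhip* subsets it recovered 59.8% and 91%. The genes changed in these sums were drawn only from genes above a floor of UMIs. DESeq2 1.42.0, an aorta block, each aorta left out, other filters, resolutions and subsets were alternatives, some chosen after seeing the data: leaving out the low-UMI subsets (median under 50% of that of SMCs), the depth band of 5000 to 10000 UMIs and the fibroblast cluster.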

Additional observations from a re-analysis of the deposited data

How the results depend on the processing

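With 2 aortas, 1 left out leaves no residual degrees of freedom, so those settings gave values without a test. Counts of called members between classes (10 in each) and among subsets (10) stayed the same under all alternatives run, and the calls in single subsets were 78 of 100, with 57 to 87 under the alternatives, of which the 3 without low-UMI cells or subsets had only 80 tests. Members called in tdTomato-only SMCs rose from 0 to 2 with no gene filter. The share of UMIs from members in SMCs was 5.28% to 5.52% with 1 aorta left out. The share of lymphocytes with a UMI of a given member, as the median over the 10 members, was 6.16% at 1000 UMIs. It was 4.72% to 7.59% with 1 aorta left out, 1.35% when 2 UMIs were required and 14.9% without thinning.

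Single calls in subsets changed as follows. With mixed subsets kept, *Tpm1* and *Myh11* in the *Mdga2* subset and *Actg2* in the *Sema3a* subset were lost, and *Tpm1* in the *Hspa1a* subset and *Cnn1* and *Smtn* in the *Psd* subset were gained. With no gene filter, *Myh11* in the *Mdga2* subset and *Smtn* in the *Gm37800* subset were lost, and *Tpm1* in the *Hspa1a* subset, *Actg2* in the *Psd* subset and *Cnn1* in the *Hspa1a*, *Psd*, *Vcam1*, *Gm37800* and *Gdf15* subsets were gained. At 5000 to 25000 UMIs and without low-UMI subsets, *Tpm1* and *Myh11* in the *Mdga2* subset were lost, and *Tpm1* and *Smtn* in the *Hspa1a* subset and *Cnn1*, *Cald1* and *Smtn* in the *Psd* subset were gained. At 5000 to 10000 UMIs *Tpm1* and *Smtn* in the *Hspa1a* subset and *Actg2*, *Cnn1* and *Smtn* in the *Psd* subset were gained, and DESeq2 gained *Cald1* and *Smtn* in the *Psd* subset, each beside the changes given with the subsets above.

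The direction of some uncalled values turned. In the *Vcam1* subset *Tpm1* (-0.03) was 0.0009 with no gene filter, 0.0182 at 5000 to 25000 UMIs, 0.0012 with mixed subsets kept, 0.0269 without low-UMI subsets and -0.0448 to 0.0383 with 1 aorta left out. There *Lmod1* (-0.15) was 0.0302 at 5000 to 10000 UMIs and *Myh11* (-0.06) was -0.1272 to 0.0540 with 1 aorta left out. With 1 aorta left out, *Lmod1* in the *Mdga2* subset (-0.09) was -0.1400 to 0.0391 and *Actg2* in tdTomato-only SMCs (-0.09) was -0.8825 to 0.4539. The cause was not tested.

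The aorta as a replicate block added 9 calls in subsets, given beside them, and changed no other call, with 87 of 100 calls against 78. Over all genes it moved the calls in the *Hspa1a* subset from 525 to 810 and in tdTomato-only SMCs from 3 to 19. DESeq2 called 338 genes there in place of 525, 374 in place of 650 in the *Sema3a* subset, 339 in place of 531 in the *Psd* subset and 19 in place of 3 in tdTomato-only SMCs. That last count was 58 with no gene filter, 14 with mixed subsets kept and 5 without low-UMI subsets. Genes differing among subsets fell from 5102 to 3393 at 5000 to 25000 UMIs and to 2555 at 5000 to 10000 UMIs, where 339 in place of 959 were called in the *Vcam1* subset and 438 in place of 660 in the *Gdf15* subset. DESeq2 moved the median log2 fold change of all genes from -0.02 to 0.87 in the *Adam33* subset and by -0.19 to 0.21 in the other 9, and no member changed direction with it. Few cells limit the tdTomato-only values, where 2 aortas and 34 and 40 cells stand behind each level.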

Other observations

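The subsets left out of the tests held filament genes in other proportions. The mixed subset led by *Nrn1*, *Lum*, *Mab21l2*, *Scin* and *Dcn* (123 and 80 cells) had *Acta2* at 9625 and 11745 CPM but *Actg2* at 701 and 1086 CPM, so that *Actg2* was 6.79% and 8.47% of the smooth muscle actin UMIs. In the small subset led by *Rgs17* (21 and 9 cells) *Actg2* was instead at 22 and 55 CPM, or 0.0967% and 0.286% of those UMIs, while *Acta2* was at 22642 and 19138 CPM and *Lmod1* at 1572 and 1346 CPM. Both subsets were singled out after their values had been seen, and neither difference was tested.

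*Myh9*, which encodes the heavy chain of a non-muscle myosin, ran against *Myh11* in several subsets. Its level was 221 and 291 CPM in the *Hhip* subset and 65 and 65 CPM in the *Sema3a* subset, and it was called higher in the *Hhip* subset (log2 fold change 1.26) and lower in the *Sema3a* subset (-0.67) in edgeR's quasi-likelihood test.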
